A study of Caenorhabditis elegans with 2 samples.

Results

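The reproducible ChIP-seq peaks of tagged NHR-102 that lie beside nuclear transfer RNA (tRNA) genes of Caenorhabditis elegans are described here. A peak was taken when its summit, the position of highest signal, lay inside a tRNA gene or no more than 200 bp from one. There were 224 such peaks among the 2773 reproducible peaks on nuclear chromosomes and 2796 in all, a share of 8.08% of the nuclear peaks (exact 95% interval 7.09% to 9.15%). The bases within the same reach of a tRNA gene make up 0.272% of the nuclear genome. The peaks touched 248 of 612 nuclear tRNA genes. All exact intervals below are binomial (Clopper-Pearson) and cover counting error only.

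The animals were whole hermaphrodites of strain OP463, with the genotype unc-119(tm4063) III; wgIs463, at the L4 larval stage. They were synchronized by starving hatched L1 larvae after bleaching and collected 50 h later. NHR-102 was fused to GFP and FLAG at its C terminus, expressed from a stably carried transgene in a single line, and precipitated with an antibody against GFP. Both biological replicates belong to 1 group, so no condition was compared with another, and no sample of an untagged strain was analysed here. The peak signals come from all tissues of the animal together, so a weak signal in many cells and a strong one in few cannot be told apart.

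Transfer RNAs carry amino acids to the ribosome and read the codons of messenger RNA with their anticodon. The tRNAs that carry 1 amino acid form an isotype. Their genes are transcribed by RNA polymerase III from a promoter inside the gene, made of an A box near the start and a B box further on, both recognized by the factor TFIIIC. TFIIIC places TFIIIB just upstream of the gene, and transcription stops at a run of T after it. NHR-102 belongs to the nuclear hormone receptors, a family of DNA-binding transcription factors with a large expansion in C. elegans.

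The genes of 3 of the strongest peaks with a single tRNA gene in reach and a summit close to it are shown with 100 bases before and 40 bases after them, since they let the summit be placed against the gene and its flanks. The sequences are those of the RefSeq assembly WBcel235, identical to ce11, written along the gene's strand, with positions counted from 1. Capitals mark the tRNA gene as annotated, introns included. R11.t1 and F57F5.t1 contain an intron. The summit lay 18 bp before the first base of R11.t1, and 69 and 51 bp after the first base of C18A11.t2 and F57F5.t1. In the peak interval at C18A11.t2 a much stronger summit lay 223 bp from the gene, outside the limit.
R11.t1 (Tyr) at chrX:16209729-16209952, minus strand: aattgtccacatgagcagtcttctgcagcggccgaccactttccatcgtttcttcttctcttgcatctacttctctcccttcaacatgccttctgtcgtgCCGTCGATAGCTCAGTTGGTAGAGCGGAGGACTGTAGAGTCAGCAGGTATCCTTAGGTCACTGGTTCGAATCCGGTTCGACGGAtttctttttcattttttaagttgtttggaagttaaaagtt
C18A11.t2 (Arg) at chrX:8036645-8036857, minus strand: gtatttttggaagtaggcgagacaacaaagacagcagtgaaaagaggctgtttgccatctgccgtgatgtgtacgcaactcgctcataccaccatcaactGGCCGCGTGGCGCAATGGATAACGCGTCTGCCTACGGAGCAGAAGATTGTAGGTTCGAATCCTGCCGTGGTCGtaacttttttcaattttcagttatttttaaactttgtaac
F57F5.t1 (Ile) at chrV:12002076-12002300, plus strand: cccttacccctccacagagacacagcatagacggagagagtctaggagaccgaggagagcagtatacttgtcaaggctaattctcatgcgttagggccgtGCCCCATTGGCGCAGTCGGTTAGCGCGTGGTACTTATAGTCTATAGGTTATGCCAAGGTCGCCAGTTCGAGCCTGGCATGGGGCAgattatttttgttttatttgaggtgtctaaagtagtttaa

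Many tRNA genes are exact copies of each other, so 5 families of identical genes are shown by 1 copy each, because copies with the same internal promoter differed in whether they had a summit. Capitals mark the A box, written TNGCNNAG, and the B box, written GNTCNANNC, where a search along the gene's strand found those letters. The A box letters were found in F15G9.t2 and K08B5.t1. K08B5.t1 was chosen after its values were seen, and the other copies lie within 200 bp of the summits of strong peaks. The summit near F15G9.t2 lay inside its neighbour F15G9.t1, an Ala gene of another sequence with 8 copies. F15G9.t2 thus counts as having a summit only by the 200 bp reach, as any copy near a neighbour's summit does.
F15G9.t2 (Ala) at chrX:9743747-9743818, plus strand: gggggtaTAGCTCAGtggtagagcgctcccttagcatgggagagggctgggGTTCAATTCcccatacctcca
F46G11.t1 (Pro) at chrX:5801472-5801543, plus strand: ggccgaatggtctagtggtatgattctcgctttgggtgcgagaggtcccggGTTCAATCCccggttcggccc
R04A9.t1 (Gln) at chrX:410391-410462, plus strand: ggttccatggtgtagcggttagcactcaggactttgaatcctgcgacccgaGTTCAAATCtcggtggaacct
C06G1.t1 (His) at chrX:16634830-16634901, minus strand: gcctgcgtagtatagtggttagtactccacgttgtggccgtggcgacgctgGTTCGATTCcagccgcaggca
K08B5.t1 (Phe) at chrX:16551511-16551583, plus strand: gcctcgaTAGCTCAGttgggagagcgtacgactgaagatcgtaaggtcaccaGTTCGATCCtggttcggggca

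Of the 15 identical copies of the Ala gene, which read with the anticodon AGC, 12 had a reproducible summit (80%, exact 95% interval 51.9% to 95.7%). The 24 copies of the Pro gene, anticodon TGG, gave 15 with a summit (62.5%, interval 40.6% to 81.2%). Only 4 of the 15 Gln copies, anticodon TTG, had one (26.7%, interval 7.79% to 55.1%), although a Gln copy stood beside the strongest of the 224 peaks. The His family, anticodon GTG, gave 4 of 11 copies, and the Phe family, anticodon GAA, gave 2 of 10 (20.0%, interval 2.52% to 55.6%). Among all families of at least 10 copies, Ala had the highest share, and Phe had the lowest together with Trp (2 of 10). The largest family, Gly with the anticodon TCC, gave 20 of 29 copies (69.0%). Ala and Phe are thus the extremes of a longer list, and the Ala interval overlapped those of Gln and Phe by a few percentage points. When the 2796 strongest peaks of each replicate were used alone, the Ala family gave 11 copies in each, the Pro family 13 and 18, the Gln family 5 and 6, the His family 4 and 3, and the Phe family 3 and 2, for replicates 1 and 2 in turn. Copies of 1 sequence thus held both genes with and without a summit in all 5 families, in both replicates.

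The label tRNA was checked on the sequences. The B box letters were present in 603 of the 612 genes and began at a median of base 53, and the stricter A box letters were present in 263, at a median of base 8. A plain search for an anticodon of the annotated isotype succeeded in 598 of the 607 genes with an isotype, and 5 genes had none. Genes with both boxes had a summit in 98 of 261 cases (37.5%), and genes with the B box alone in 149 of 342 (43.6%). Among the 14 genes with no isotype or no anticodon of it, 1 had a summit (7.14%, interval 0.181% to 33.9%). The B box letters stood within 100 bp of the summit, on one strand or the other, in 196 of the 224 peaks (87.5%), 418 of the 2549 other nuclear peaks (16.4%) and 18.6% of all nuclear windows of the same 201 bp. The high share of the 224 peaks follows from the genes that they were chosen by, and the share of the other peaks was close to that of the genome. A match of letters does not show that a factor bound there.

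Of all 612 nuclear tRNA genes, 40.5% had a reproducible summit inside them or within 200 bp (interval 36.6% to 44.5%). Counted the same way, the share was 5.64% over all 46890 nuclear genes of any biotype. It was 23.7% over 346 genes for small nucleolar RNAs, 30.2% over 129 genes for small nuclear RNAs of the spliceosome and related particles, and 4.98% over 261 microRNA genes. The classes differ in gene length and copy number, and several genes can share a summit, so the shares are descriptions. The tRNA share stood above each of the others, and it was 39.9% and 41.8% with the strongest peaks of replicate 1 and replicate 2 alone. Genes for small nucleolar and small nuclear RNAs also stood above the share of all genes.

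By chromosome, 49.1% of the 224 peaks were on X (110 peaks, interval 42.4% to 55.9%), where 45.1% of the tRNA genes and 21.0% of all nuclear reproducible peaks lie. Peaks beside tRNA genes made up 18.9% of the 581 peaks on X, and between 2.76% on V and 6.65% on I of the peaks on each autosome. Relative to the number of tRNA genes, the intervals of X and of most autosomes overlapped: 124 of its 276 genes had a summit (44.9%, interval 39.0% to 51%), as did 109 of 258 genes on chromosomes I to IV (42.2%, interval 36.1% to 48.5%). Of the 110 peaks on X, 88 lay outside the promoter windows of protein-coding genes (80%, interval 71.3% to 87.0%). These windows run from 1000 bp before to 200 bp after each 5′ end. The share was 80 of 114 for the autosomal peaks (70.2%, interval 60.9% to 78.4%), and the intervals overlapped.

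Chromosome V had the lowest share, with a summit at 15 of 78 tRNA genes (19.2%, interval 11.2% to 29.7%). Chromosome II had the highest, with 30 of 57 (52.6%, interval 39.0% to 66.0%), and the intervals of V and II did not overlap. The shares of I, III and IV were 37.9%, 42.2% and 38.0%. Among genes with more than 10 identical copies, 8 of 35 on V had a summit (22.9%, interval 10.4% to 40.1%) and 74 of 135 on X (54.8%, interval 46.0% to 63.4%). The interval of I (19 of 31, 42.2% to 78.15%) also lay above that of V. Those of II (14 of 26, 33.4% to 73.4%), III (11 of 28, 21.5% to 59.4%) and IV (14 of 32, 26.4% to 62.3%) overlapped it. Among genes with a unique sequence, the shares were 4 of 27 on V (14.8%, interval 4.19% to 33.7%), 2 of 12 on I (16.7%) and 16 of 57 on X (28.1%, interval 17% to 41.5%), with overlapping intervals. They were 4 of 16 on IV (25%), 5 of 14 on III (35.7%) and 8 of 17 on II (47.1%, interval 23.0% to 72.2%), whose intervals also overlapped that of V. The low share of V rested more on replicate 1: its strongest peaks gave 16 of 78 genes on V (20.5%), and those of replicate 2 gave 24 (30.8%). V was still the lowest chromosome in each replicate, and the next lowest were I in replicate 1 (33.3%) and IV in replicate 2 (33.8%).

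**Figure D1:**
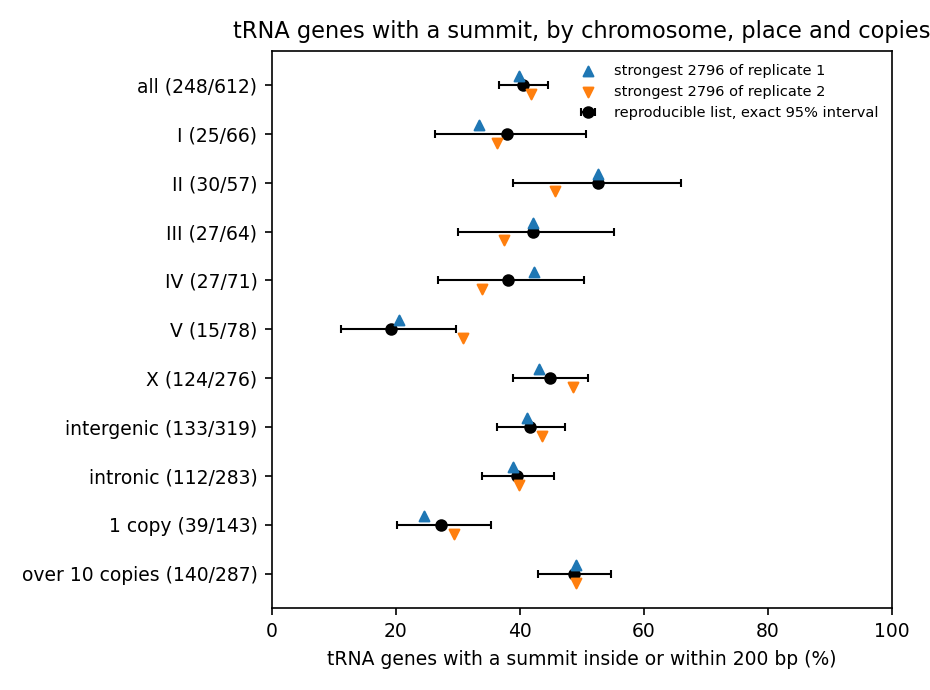
Percentage of nuclear tRNA genes with a summit inside or within 200 bp, for all genes, each chromosome, genes between and in introns of protein-coding genes, and genes with 1 or more than 10 identical copies. Black points with bars are the reproducible list with exact 95% intervals, and triangles are the 2796 strongest peaks of each replicate; V sits lowest among the chromosomes at 19.2% and replicate 2 moves it to 30.8%.

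The share was set beside the number of identical copies of each gene. It was 27.3% for the 143 genes with a unique sequence (39 genes, interval 20.2% to 35.4%) and 48.8% for the 287 genes in families of more than 10 copies (140 genes, interval 42.9% to 54.7%), so these intervals did not overlap. Families of 2 to 5 copies gave 40.2% and those of 6 to 10 copies 36%. The contrast between single and highly repeated genes was present in each replicate, at 24.5% against 49.1% in replicate 1 and 29.4% against 49.1% in replicate 2. Its size varied by chromosome in the reproducible list. It was wide on I (16.7% against 61.3%) and X (28.1% against 54.8%). It was narrower on IV (25% against 43.75%) and V (14.8% against 22.9%), and small on II (47.1% against 53.8%) and III (35.7% against 39.3%). Leaving out the unique genes without an anticodon of their isotype, the share was 38 of 129 (29.5%, interval 21.8% to 38.1%). The difference itself was not tested, and copy number goes with isotype and chromosome.

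Repeated genes are also places where short reads cannot be placed uniquely, and neither the read length nor the treatment of such reads is given in the sources used here. Taking 36 bases as an example length, 473 tRNA genes held no unique stretch of that length within the gene, and 44.6% of them had a summit, against 26.6% of the 139 genes with at least one. With 200 bp of flank on each side, 522 genes were unique over at least 80% of the window, and 41.2% of these had a summit, against 36.7% of the other 90. Of the 95 summits inside a gene, 82 were inside one with no unique stretch. How this bears on the place of the summit within a gene was not tested.

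Intergenic and intronic tRNA genes had similar shares. Among 319 intergenic tRNA genes 133 had a summit (41.7%, interval 36.2% to 47.3%), and among 283 in introns of protein-coding genes 112 had one (39.6%, interval 33.8% to 45.5%). Genes in introns on the strand opposite to the host had a summit in 55 of 122 cases (45.1%), and those on the same strand in 57 of 161 (35.4%), with intervals of 36.1% to 54.4% and 28.0% to 43.3% that overlapped. The remaining 10 tRNA genes overlapped exons, and 3 of them had a summit. Taken by the summit, 116 of the 224 peaks were intergenic (51.8%), 96 intronic (42.9%) and 12 exonic. The 2549 other nuclear peaks were intronic in 20.5% of cases and in a promoter window in 57.0%, against 25% of the 224 peaks. These shares follow in part from where tRNA genes lie.

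Among isotypes with at least 10 genes, the highest shares were those of Ala (18 of 34, 52.9%, interval 35.1% to 70.2%), Pro (22 of 42, 52.4%) and Gly (28 of 55, 50.9%). The lowest were those of Phe (2 of 14, 14.3%, interval 1.78% to 42.8%), Trp (3 of 12, 25%) and His (6 of 20, 30.0%). The intervals of the highest and lowest isotypes overlapped, so the order of isotypes is not resolved at these numbers. All 21 isotypes, which include selenocysteine, had at least 1 gene with a summit. The single selenocysteine gene, K11H12.t1, had a modest peak with a signal of 120 in the pooled reads, 72.6 in replicate 1 and 49.4 in replicate 2. Within an isotype the anticodons also varied, as in Thr, where 9 of 17 genes with the anticodon AGT and 1 of 9 with TGT had a summit.

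**Figure D2:**
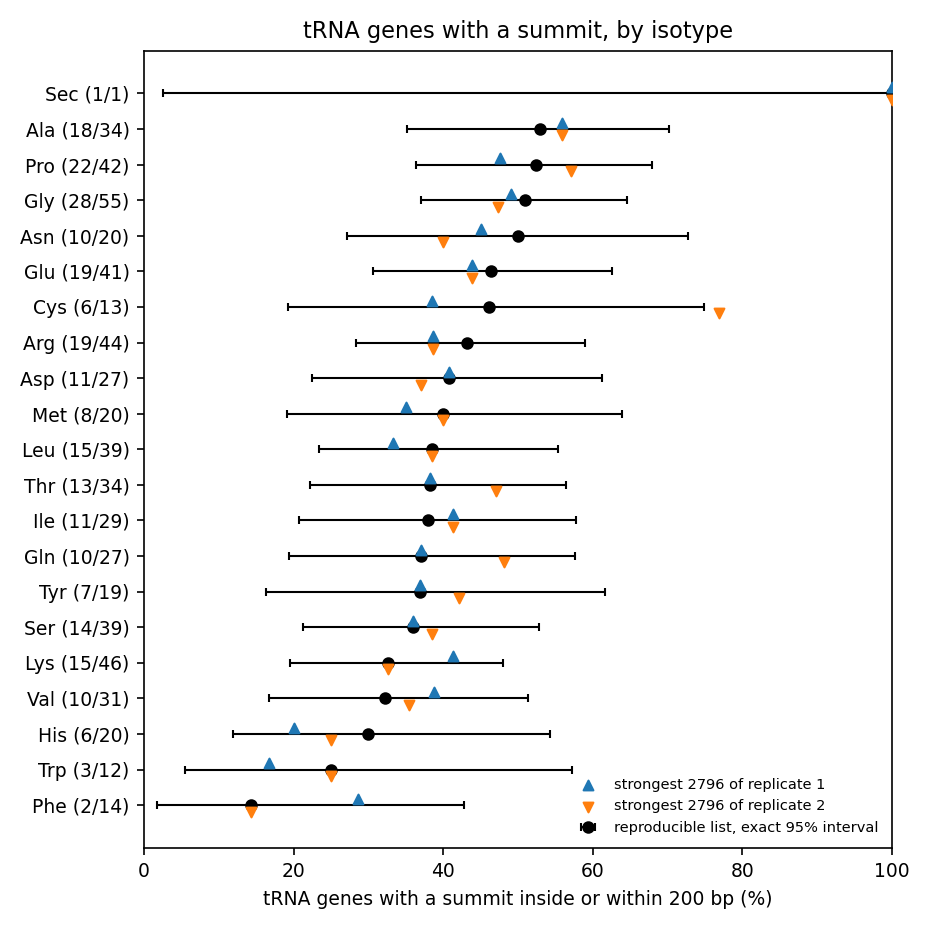
Percentage of nuclear tRNA genes of each isotype with a summit inside or within 200 bp; black points with bars are the reproducible list with exact 95% intervals, and triangles the 2796 strongest peaks of each replicate. The intervals are wide and overlap from Ala at 52.9% to Phe at 14.3%, and the 2 replicates differ most for Cys, with 5 and 10 of 13 genes.

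The summits lay on and close around the genes. Of the 224, 95 were inside the tRNA gene (42.4%), 95 were 1 to 50 bp outside it, 24 were 51 to 100 bp, 7 were 101 to 150 bp and 3 were 151 to 200 bp away. Along the strand of the nearest gene, the median summit was 32.5 bp after the 5′ end, with quartiles 20 bp before and 72 bp after it, and the median gene was 72 bp long. The median was 36 bp for genes on the plus strand and 14 bp for those on the minus strand, and 26 bp over both when the weaker of 2 summits up to 210 bp apart was left out, an alternative chosen after seeing the data. Summits before the 5′ end numbered 74 and those past the 3′ end 55. The summit of the matching peak lay within 50 bp of the reproducible summit for 192 of 223 peaks in each replicate, so a single summit carries an uncertainty of that size.

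The 3 peaks just inside the limit were the second peak of F57F5.t1, at 170 bp with a signal of 119, the second peak of a Glu gene named rte-1, at 155 bp with 92.2, and the second peak of C48C5.t1, a Pro gene, at 154 bp with 134. The nearest peaks just outside were one 223 bp from C18A11.t2 with a signal of 1583, one 248 bp from C02B4.t1, an Ile gene, with 108, and one 289 bp from T03E6.t1, a Gln gene. No summit lay further than 170 and nearer than 223 bp, so the limit falls in a gap. The summit counted for C18A11.t2 and the much stronger one with 1583 were called in the same peak interval, of 901 bp.

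**Figure D3:**
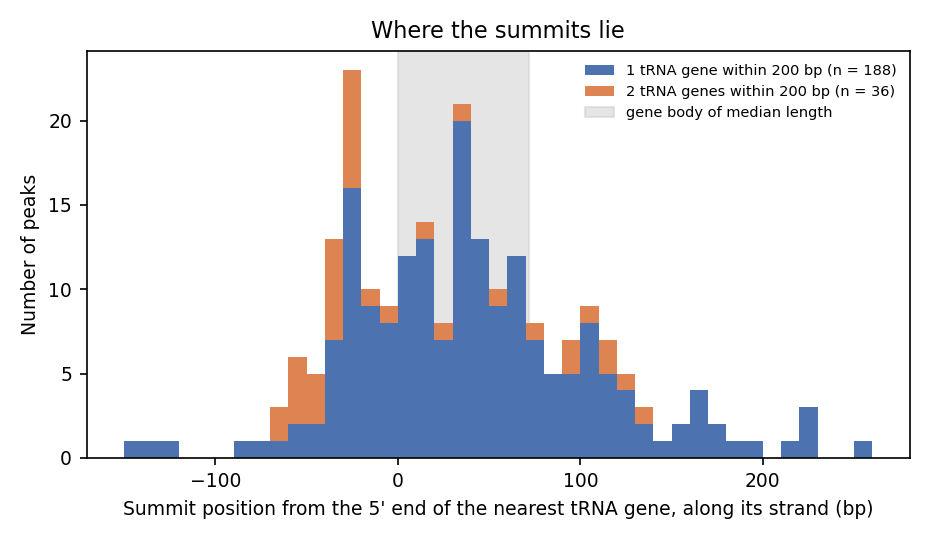
Number of peaks by the position of the summit from the 5′ end of the nearest tRNA gene along its strand, in bins of 10 bp, stacked for peaks with 1 and with 2 tRNA genes within 200 bp; the grey band is a gene of the median length, 72 bp. Summits with 1 gene spread over and around the gene body with a median of 36 bp, and those with 2 genes gather before the 5′ end with a median of -28 bp. A summit must be near both genes to count for 2, so this difference follows in part from the grouping.

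Neighbouring tRNA genes often shared a peak. Of the 224 peaks, 188 had 1 tRNA gene within 200 bp of the summit and 36 had 2, and none had 3. There were 57 neighbouring pairs of tRNA genes 48 to 195 bp apart, and 43 of these pairs had a summit in or within 200 bp of them (75.4%, interval 62.2% to 85.9%), with a wider reach than a single gene has. The 34 divergent pairs, whose 5′ ends face each other, were mostly of 1 isotype (31 pairs), and 27 of them had a summit, which lay between the genes in 18. Tandem pairs had one in 9 of 10 cases and convergent pairs in 7 of 13. In runs of genes the pairs overlap, so 1 summit can count for 2 pairs and the pairs are not independent. The summit near H08J11.t1 lay between the genes of a divergent pair and also counted for a convergent one. Summits with 2 genes in reach had a median position 28 bp before the 5′ end of the nearest gene, against 36 bp after it for those with 1 gene. Only a summit within 200 bp of both genes counts for 2, and most pairs were divergent. The difference in position therefore follows in part from the grouping. Genes with another tRNA gene within 1000 bp had a summit in 47.9% of 236 cases (interval 41.4% to 54.5%), and the other 376 in 35.9% (interval 31.1% to 41.0%), so the intervals did not overlap, although neighbours share summits and are not independent.

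At 12 tRNA genes 2 summits were called. In 11 of them the summits were 200 to 203 bp apart, and in all 12 the stronger summit had the lower coordinate. All 12 genes are on the plus strand, as are 298 of the 612 tRNA genes, so the order says nothing about orientation to the gene. The smallest distance between any neighbouring summits of the nuclear list was 199 bp, and 125 of 186 distances under 400 bp were 200 to 210 bp, and the stronger summit had the lower coordinate in 148 of 149 neighbouring pairs up to 210 bp apart, so spacing and order are properties of the list at large. Near T03E6.t1, on the minus strand, the weaker second summit lay further before the 5′ end. At R04A9.t1, the stronger summit had a signal of 530 at 126 bp before the 5′ end, and the weaker 173 at 3 bp past the 3′ end. At F41D9.t3, an Asn gene, the summits had signals of 329 and 159, at 31 bp before and 171 bp after the 5′ end. These second summits are counted among the 224 peaks.

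The signal of a peak is the authors' value, comparable within 1 list. In the reproducible list, which carries the values of the pooled reads, the 224 peaks ranged from 90.6 to 530 with a median of 152, and the 2549 other nuclear peaks had a median of 141 and reached 2297. The median of the 224 stood at the 55.2nd percentile of the nuclear list. Few were at the top: 1 was among the 100 strongest nuclear peaks and 31 among the 500 strongest. Peaks beside tRNA genes on X had a median of 171 and those on autosomes 143, while other peaks had 142 on X and 141 on autosomes. The medians in each replicate were 84.0 and 89.5 for those on X and 73.6 and 69.3 for those on autosomes, so the order was the same in both. The ranges of X and autosomal peaks overlapped widely, from 92.2 to 530 and from 90.6 to 378. No test of this difference was made.

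**Figure D4:**
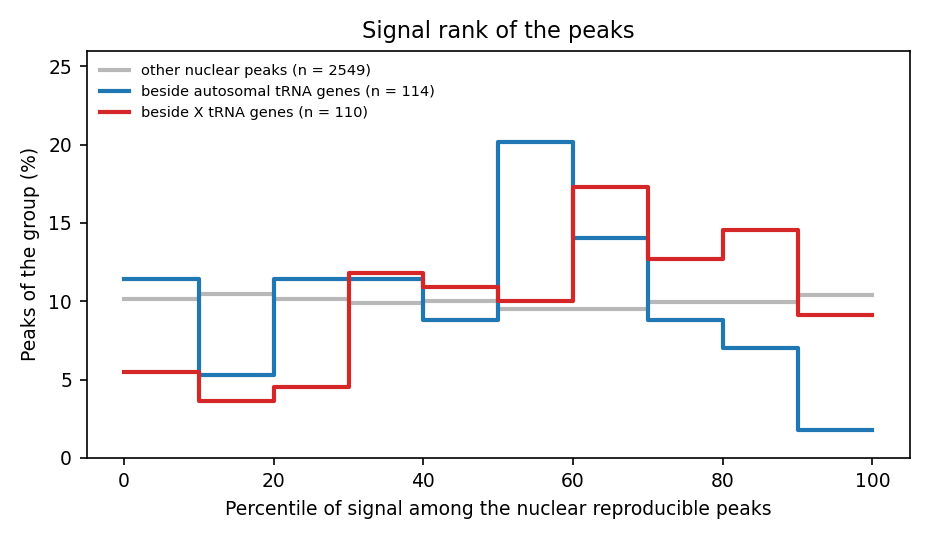
Percentage of peaks in each step of 10 percentiles of the signal ranking of the nuclear reproducible peaks, for peaks beside X and autosomal tRNA genes and for the other nuclear peaks. The other peaks fill the steps evenly, while those beside X tRNA genes lie more in the upper steps up to the 90th percentile, and the medians are the 62.9th percentile on X and the 50.7th on autosomes.

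The strongest peak was at R04A9.t1, a Gln gene on X in an intron of ZK1193.2, with a signal of 530 in the pooled reads, 260 in replicate 1 and 277 in replicate 2. It ranked 124th and 104th in the replicate lists, high in both. The next lay between the divergent genes M02F4.t1 (Gly) and M02F4.t2 (Glu) on X, with 475 in the pooled reads, 221 in replicate 1 and 258 in replicate 2. At R11.t1, a Tyr gene on X shown above, the signal was 468 pooled, 232 in replicate 1 and 234 in replicate 2. In the lists of replicates 1 and 2, the peak between the M02F4 genes had ranks 180 and 118, and that at R11.t1 ranks 167 and 143.

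C18A11.t2, an Arg gene on X, had 444 in the pooled reads, 367 in replicate 1 and 211 in replicate 2. Its summit is the weaker one of the interval described above. The replicate values, at ranks 66 and 173, are those of the covering peak with the nearest summit. F57F5.t1, an Ile gene on V with a unique sequence, had 378 pooled, 173 in replicate 1 and 212 in replicate 2, and was the strongest peak beside an autosomal tRNA gene. The pair of Ala genes F15G9.t1 and F15G9.t2 lies in an intron of him-4, which encodes the extracellular matrix protein hemicentin, and had 372 pooled, 180 in replicate 1 and 195 in replicate 2. It was with R04A9.t1 one of the 2 strongest peaks in introns of protein-coding genes.

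The remaining 6 of the 12 strongest peaks had pooled signals from 329 to 365. They stood at the Leu genes W02H3.t1 and C04A11.t1, the Val gene R04D3.t2, the Arg gene F56F3.t1 on III, the Tyr gene C02B4.t2 in an intron of nhr-17, which encodes another nuclear hormone receptor, and the Asn gene F41D9.t3 in an intron of sulp-3, which encodes an anion transporter of the sulfate permease family. Their replicate 1 values ran from 154 to 195 and their replicate 2 values from 150 to 174. The 12 strongest peaks were thus at tRNA genes of 10 isotypes, and 10 of the 12 were on X.

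On the other chromosomes, the strongest peaks were at the Thr gene W09G10.t3 and its neighbour W09G10.t2, a Lys gene, on II, with 315, F56F3.t1 on III, with 333, the Lys gene B0350.t1 on IV, with 291, and the Lys gene M01E5.t1 on I, with 277. Taking each peak by its nearest gene, the strongest peaks of other isotypes were those of Ser at C53C7.t1 and C53C7.t2 (318), Pro at F46G11.t1 and F46G11.t2 (313), Glu at C28G1.t1 (310, below the peak that M02F4.t2 shares), Asp at F52H2.t1 (266), His at C06G1.t1 (253), Cys at F42D1.t1 (189) and Met at E01H11.t1 (184). F52H2.t1 lies in an intron of aat-3, an amino acid transporter gene, and E01H11.t1 in one of pkc-2, a protein kinase C gene. All 7 of these peaks were on X.

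Nearly all of the 224 peaks were covered by a peak in both replicates, mostly at similar ranks. A covering peak was not always a separate one for each summit. At rte-1 in replicate 1 and F41D9.t3 in replicate 2, the same peak was matched to both summits of the gene. Of the 224 peaks, 222 had a covering peak in both replicate lists of 30000, and 169 were covered by one of the 2796 strongest of both (75.4%, interval 69.3% to 80.9%). The background share over the 2549 other nuclear peaks was 66.1%, and the intervals did not overlap, but the reproducible list was itself made from both replicates. A further 45 peaks passed that rank in only 1 replicate, and 10 passed it in neither. Of the other nuclear peaks, 97.8% were covered in both replicate lists of 30000. The ratio of their ranks had a median of 1.47 and exceeded 10 in 1.20%. For the 224 peaks the ratio had a median of 1.40 and exceeded 10 for 4 peaks.

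Those 4 peaks had a low matched value in 1 replicate. At the Ala gene C11E4.t1 on X the signal was 217 pooled, 15.6 in replicate 1 and 98.3 in replicate 2, with the replicate 1 summit 198 bp away. At C16C8.t1 (Lys) and C16C8.t2 (Thr) on II it was 143 pooled, 89.7 in replicate 1 and 10.9 in replicate 2. At the Gln gene Y4C6B.t1 on IV it was 104 pooled, 14.0 in replicate 1 and 59.9 in replicate 2. The second peak of F57F5.t1 had 119 pooled, 91.4 in replicate 1 and 14.7 in replicate 2. These low values belong to covering peaks whose summits lay 37 to 198 bp from the reproducible summit. At 3 of the 4 a stronger peak with a farther summit also covered it, with 62.9 in replicate 2 at C16C8.t1, 48.7 in replicate 1 at Y4C6B.t1 and 212 in replicate 2 at F57F5.t1, so the low values depend on the matching. At C11E4.t1 no stronger peak covered it. Of the 2 peaks absent from a list, that at the Lys gene F55F3.t1 had no covering peak in replicate 2 and 64.9 in replicate 1, and that at the Leu gene F10C1.t2, in an intron of dmd-5, had none in replicate 1 and 47.5 in replicate 2.

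**Figure D5:**
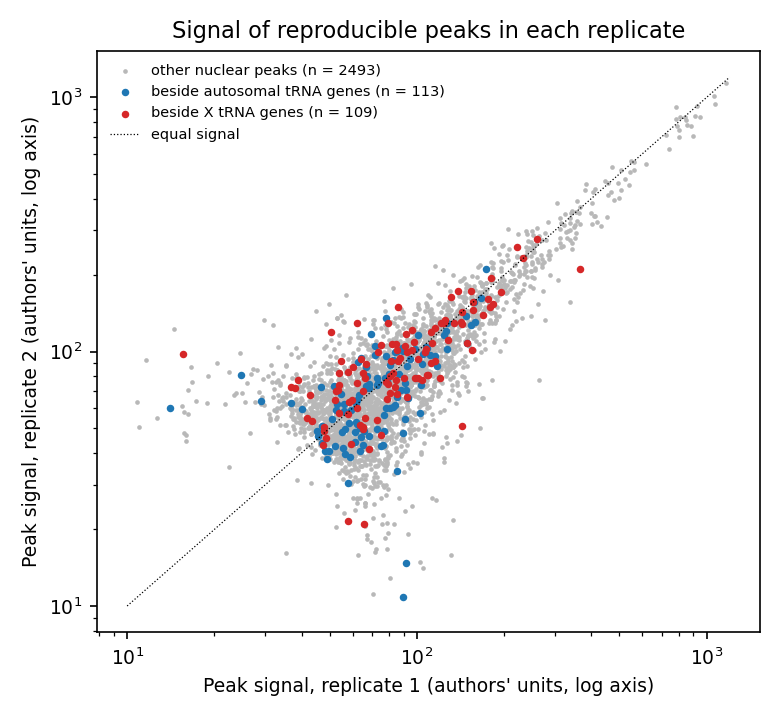
Signal of each reproducible peak in the covering peak of replicate 1 and of replicate 2, on log axes, in the authors' units; grey points are other nuclear peaks, blue and red points peaks beside autosomal and X tRNA genes, and the dotted line marks equal signal. The peaks beside tRNA genes lie within the cloud of the others at 14.0 to 367 in replicate 1 and 10.9 to 277 in replicate 2, and reach none of the highest values.

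Some of the 364 tRNA genes without a reproducible summit had a summit in the longer lists, which also hold background peaks. In the longer pooled list, 107 of the 364 had a summit within 200 bp (29.4%, interval 24.8% to 34.4%). Their signals ran from 16.4 to 89.9 with a median of 58.5, below the lowest of the 224 peaks. The peak at C47E8.t1 had rank 2703 in both the reproducible and the pooled list. The reproducible list thus holds the strongest pooled peaks at least down to that rank, and the lower signals follow largely from its cut. In the replicate lists 146 of the 364 had a summit in replicate 1 and 161 in replicate 2, and 105 had one in both. The share of all nuclear genes with a summit was not counted in these longer lists, so no background stands beside these counts. Those lists include background peaks by design, but 7 of the 364 genes had a summit among the strongest 2796 peaks of both replicates, and only 1 of these 7 had a pooled summit. The strongest were T23F1.t1 (Lys) and T23F1.t2 (Pro), neighbours on V that share a peak, with 205 in replicate 1 (rank 204) and 221 in replicate 2 (rank 158) and no pooled summit within 200 bp. C02D4.t1, an Ile gene on X, had 112 and 101 (ranks 726 and 832), also without a pooled summit. Why these are missing from the pooled list was not tested. The genes without a reproducible summit had 9 identical copies at the median and those with one 12.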

How the data were processed

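Chromatin immunoprecipitation and sequencing was performed in 2 biological replicates of 1 group, per the labels. The deposited ce11 peak lists were used: each replicate against a shared control file, both pooled (30000 peaks each), and the reproducible list derived from these by the irreproducible discovery rate, per the notes deposited with the samples. Peak signal values are the authors', and the depth behind them is unknown. The sources used here give no aligner, peak caller, version or threshold. One label of the antibody names nhr-102 and the description names GFP, and the latter was followed. Lists in ce10 were not used here. Genes came from Ensembl release 115 for WBcel235, the same sequence as ce11, and tRNA names and sequences from RefSeq.

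A replicate value is that of the peak covering the reproducible summit, with the nearest summit where several did. Named genes were those of the 12 strongest peaks, the strongest of each chromosome and of each isotype with at least 5 peaks, the 2 strongest in introns, peaks differing most between replicates or absent from one, and those beside the distance limit. The members and lists were chosen with earlier results of these data known. Only shares with exact 95% intervals, medians and ranges were computed, with no test across samples, in Python 3.11.15 with pandas 2.3.3 and scipy 1.17.1. The arithmetic of the distance rule was checked on planted summits at known places. That check was separate from the assignment used for the results, so it does not test it.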

Additional observations from a re-analysis of the deposited data

How the results depend on the processing

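Counting only summits inside the gene left 95 peaks and 95 tRNA genes, and a reach of 100 or 500 bp left 214 or 229 peaks. Keeping the stronger 50% of the reproducible list left 128 peaks and 151 genes, with a median position of 23 bp, a median percentile of 37.1 within it, and 97.7% among the strongest of both replicates. The median percentile was 53.8 for summits inside the gene. With the strongest peaks of 1 replicate in place of the list, the count of peaks was 218 to 229 and of genes 244 to 256. The share on X was 49.1% to 52.4%, the median position 24 to 30 bp and the percentile 54.6 to 56.1. The share in both replicates was 73.8% to 77.1%. These peaks pass in their own replicate by the choice, so that share measures the other replicate only. For the reproducible peaks, the share in both replicates was 99.1% with the full replicate lists. It was 42.4% with 0.5 times as many strongest peaks and 95.1% with 2 times as many. Taking the strongest covering replicate peak, an alternative chosen after seeing the data, gave 79.0%. Leaving out the weaker of 2 summits up to 210 bp apart, also chosen after seeing the data, left 213 peaks and moved the median position to 26 bp. The share on X stayed between 47.9% and 54.7% in every alternative run. No paired analysis was possible because there is 1 group. Families and isotypes with few genes are limited by their number.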
